A study of Mus musculus with 6 samples.

Results

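The Hedgehog pathway was followed here through 9 genes, chosen by name for their roles in the signal, with earlier results of these data known. They were the ligand gene *Shh*, the receptor and membrane genes *Ptch1*, *Smo*, *Hhip* and *Gas1*, the transcription factor genes *Gli1*, *Gli2* and *Gli3*, and *Foxa2*, a gene of the cells that make the ligand. Each had 1 entry among the 24207 loci of the expression table, and all 9 were among the 12463 loci whose mean reached 1 FPKM over both genotypes, where FPKM counts fragments per kilobase of transcript, scaled to the mapped total. The table came from RNA-seq of whole male mouse embryos at E9.5, 3 of them Smchd1MommeD1/MommeD1 and 3 Smchd1+/+. MommeD1 is a nonsense allele of *Smchd1*, a gene for a chromosomal protein needed for X inactivation, and was made with the mutagen ENU. The mutant embryos were homozygous for it in every tissue, and the yolk sac of each embryo was used for its genotype. The labels give the background of both groups as C57Bl6/J x FVB/n, whereas the study's text names another strain for the embryos used for RNA-seq. The litters of the embryos are not given in the sources used here.

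Each locus had 1 FPKM value per genotype, a pooled value over the 3 embryos as deposited. The spread between embryos could therefore not be seen, no difference was tested, and neighbouring levels could not be separated. Instead, each difference was read against all loci whose mean reached 1 FPKM. Of these, 3.51% were at least 1.5-fold higher in Smchd1MommeD1/MommeD1, 1.47% were at least 1.5-fold lower, and 4.98% passed this rule in either direction. *Smchd1* itself was at 2.12 FPKM in the mutant pool and 34.03 FPKM in the wildtype pool, or 6.23% of wildtype, as the genotype labels say. Markers of several tissues differed between the pools by more than any Hedgehog gene did: the summed FPKM of 14 neuron genes was 265 in mutant and 121 in wildtype, that of 10 entries for erythroid genes was 16151 and 7599, and that of 11 tail bud genes was 38.5 and 76.1. In whole embryos fewer cells of a type and less RNA per cell cannot be told apart, and the part of tissue makeup in the values below was not tested.

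Hedgehog signalling patterns the neural tube, somites, gut and limb buds of the embryo. Sonic hedgehog, secreted by the notochord, the floor plate and the gut endoderm, binds the receptor Patched, which otherwise holds the membrane protein Smoothened inactive. Released Smoothened gathers in the primary cilium and stops the processing of Gli proteins into repressors, so that Gli activators switch on target genes. *Ptch1*, *Gli1* and *Hhip* are themselves such targets, and their transcripts are widely read as a measure of how strongly cells receive the signal.

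Expression of the 9 genes spanned 45.7-fold, the ratio of the highest to the lowest mean FPKM, which is a level per length. In the wildtype pool the order was *Smo*, *Gas1*, *Ptch1*, *Gli3*, *Gli2*, *Gli1*, *Shh*, *Foxa2* and *Hhip*. The mutant pool had the same order except that *Shh* stood above *Gli1*. These neighbours were also the closest pair, with *Shh* at 8.22 FPKM in mutant against 7.59 FPKM in wildtype and *Gli1* at 7.25 FPKM and 8.31 FPKM. The mean of *Smo* was above that of 91.1% of the loci and the mean of *Hhip* above that of 9.16%.

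**Figure D1:**
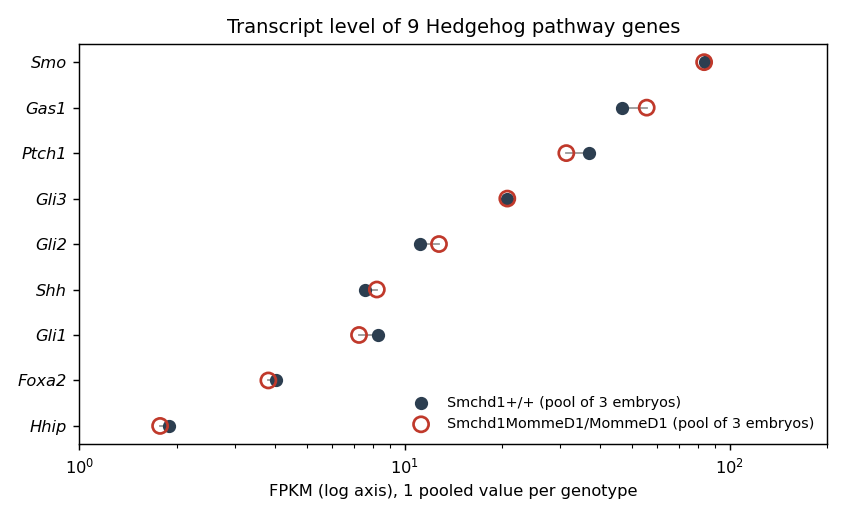
FPKM of the 9 Hedgehog pathway genes on a log axis, with 1 point for the pool of 3 Smchd1MommeD1/MommeD1 embryos and 1 for the pool of 3 Smchd1+/+ embryos; no error bar can be drawn because the table holds 1 value per genotype. The points of each gene lie close together, from *Smo* at 83.5 and 83.9 FPKM down to *Hhip* at 1.77 and 1.89 FPKM.

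The ligand gene *Shh* lies on the minus strand of chromosome 5 from 28456815 to 28467256 (GRCm38, the assembly also called mm10, with gene bounds from GENCODE M21) and has 3 exons. Its 8.22 FPKM in mutant against 7.59 FPKM in wildtype gave a difference of 0.11 on the log2(FPKM + 0.1) scale, on which all differences below are given as mutant over wildtype. This lay close to the middle of the table: 50.7% of 4515 loci whose mean FPKM was within 2-fold of that of *Shh* were at least as far from 0. The lowest FPKM values of the table, read within a fixed window, put about 1400 fragments behind the mutant value and about 1200 behind the wildtype value. This gave a counting error of about 0.06 (SE, log2 scale). This error is approximate and leaves out the spread between embryos. Of the 2748 windows of 100 bases, the read length, in the *Shh* transcript, 510 also occur in transcripts of 9530036O11Rik or Gm26894, which overlap *Shh* on the opposite strand, and the libraries kept no strand. The table's own entry for 9530036O11Rik was at 0.0344 FPKM in mutant against 0.0241 FPKM in wildtype, far below *Shh*.

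*Foxa2* encodes a forkhead transcription factor of the notochord, floor plate and endoderm that acts upstream of *Shh* there and, in the floor plate, also answers to the signal. It has 3 exons on the minus strand of chromosome 2 from 148042877 to 148046969. Its FPKM was 3.81 in mutant and 4.03 in wildtype, a difference of -0.08. Of 3720 loci of similar FPKM, 70.6% differed at least as much, and with about 480 and 460 fragments the counting error alone was about 0.09 (SE, log2 scale), larger than the difference. The *Foxa2* to *Shh* ratio was 0.464 in mutant and 0.532 in wildtype. The 2 genes thus differed in opposite directions by small amounts, and neither passed 1.5-fold.

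*Ptch1*, the receptor gene that is induced by its own pathway, has 23 exons on the minus strand of chromosome 13 from 63508328 to 63573598. It was at 31.5 FPKM in mutant against 36.8 FPKM in wildtype, 14.6% lower in mutant and -0.23 on the log2 scale. This was the largest difference towards lower values among the 9 genes. At about 14000 and 15000 fragments it exceeded the counting error of about 0.02 (SE, log2 scale), and 12.7% of 3417 loci of similar FPKM lay at least as far from 0. A second, unnamed entry of the table at the *Ptch1* locus, at 12.2 FPKM in mutant against 15.3 FPKM in wildtype, differed in the same direction by -0.32. None of the 7626 windows of 100 bases in the *Ptch1* transcript occurs in another gene.

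*Hhip*, the Hedgehog-interacting protein, is a membrane protein that binds and sequesters the ligand and, like *Ptch1*, is induced by the signal. Its 13 exons lie on the minus strand of chromosome 8 from 79965851 to 80058006. With 1.77 FPKM in mutant against 1.89 FPKM in wildtype it was the least abundant of the 9 genes and differed by -0.09. Differences of this size were common at that level, where 73.1% of 2706 loci were at least as far from 0 and 12.9% passed 1.5-fold. The long transcript still held about 950 and 930 fragments, for a counting error of about 0.07 (SE, log2 scale).

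*Gas1* encodes a membrane-anchored co-receptor that binds the ligand together with Patched, and it is repressed where the signal is strong. It is a gene of 1 exon on the minus strand of chromosome 13 from 60174405 to 60177365. *Gas1* was at 55.6 FPKM in mutant against 46.8 FPKM in wildtype, 18.8% higher in mutant and 0.25 on the log2 scale. No other of the 9 genes differed by more, yet 9.01% of 2509 loci of similar FPKM did so at least as much, and 79.6% of all loci differed by no more. About 9700 and 7500 fragments gave a counting error of about 0.02 (SE, log2 scale). Of the 2862 windows of 100 bases in *Gas1*, 394 also lie in Gm48488 on the opposite strand.

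*Smo*, the signal transducer beneath Patched, has 12 exons on the plus strand of chromosome 6 from 29735503 to 29761365. Its levels were 83.5 FPKM in mutant against 83.9 FPKM in wildtype, a difference of -0.0077, and 95.4% of 1639 loci of similar FPKM were at least as far from 0. The *Ptch1* to *Smo* ratio, which no single scaling factor for a pool can alter, was 0.377 in mutant and 0.439 in wildtype. In the same way the *Gas1* to *Ptch1* ratio was 1.77 in mutant and 1.27 in wildtype, the widest shift of the 9 ratios computed (0.48 on the log2 scale). It joins the highest and the lowest of the 9 differences, a pair picked by their values.

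The 3 Gli genes encode zinc finger proteins of 1 family. Gli2 is chiefly the activator, Gli3 chiefly the repressor, and Gli1 an activator made only where the signal is received. *Gli1* has 13 exons on the minus strand of chromosome 10 from 127329882 to 127341974, *Gli2* 14 exons on the minus strand of chromosome 1 from 118834132 to 119053619, and *Gli3* 15 exons on the plus strand of chromosome 13 from 15463235 to 15730026. How far reads can tell them apart is illustrated by 100 bases of coding sequence, the length of 1 read, from the GENCODE M21 transcripts in the zinc finger region. The stretch was centred on the longest run identical in *Gli2* and *Gli3*, and the *Gli1* stretch is the one closest to that of *Gli3*. Other stretches were not searched for a better match of all 3 genes. Bases identical in all 3 genes are in capitals, and each stretch runs 5′ to 3′ across an exon junction.
Gli1: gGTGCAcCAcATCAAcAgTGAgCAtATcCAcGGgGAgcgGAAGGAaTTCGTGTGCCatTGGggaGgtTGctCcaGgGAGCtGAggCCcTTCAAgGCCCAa
Gli2: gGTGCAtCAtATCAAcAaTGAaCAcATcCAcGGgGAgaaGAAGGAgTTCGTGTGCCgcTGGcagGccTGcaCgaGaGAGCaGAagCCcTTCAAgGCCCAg
Gli3: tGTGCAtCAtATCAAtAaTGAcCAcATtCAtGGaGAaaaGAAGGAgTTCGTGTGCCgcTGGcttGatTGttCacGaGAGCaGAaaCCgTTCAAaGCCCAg
The *Gli1* stretch lies at chr10:127336412-127336418 in exon 8 and chr10:127336020-127336112 in exon 9, the *Gli2* stretch at chr1:118848383-118848389 in exon 9 and chr1:118845974-118846066 in exon 10, and the *Gli3* stretch at chr13:15662524-15662530 in exon 10 and chr13:15713499-15713591 in exon 11. In these 100 bases 68 are the same in all 3 genes, 79 in *Gli1* and *Gli2*, 70 in *Gli1* and *Gli3*, and 82 in *Gli2* and *Gli3*. Over the whole transcripts the longest identical run was 25 bases, between *Gli2* and *Gli3*, so a read of 100 bases held differences between the 3 genes wherever it fell.

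*Gli1* was at 7.25 FPKM in mutant against 8.31 FPKM in wildtype, 12.9% lower in mutant and -0.20 on the log2 scale. *Gli2* was at 12.8 FPKM in mutant against 11.1 FPKM in wildtype, 14.6% higher in mutant and 0.20. *Gli3* was at 20.7 FPKM in both pools, a difference of -0.0014. The family therefore showed a lower value, a higher value and no shift to speak of. Among loci of similar FPKM, 28.7% of 4504 lay at least as far from 0 as *Gli1*, 24.5% of 4762 as far as *Gli2*, and 99.4% of 4312 as far as *Gli3*. The counting error was about 0.05 for *Gli1*, 0.03 for *Gli2* and 0.02 for *Gli3* (SE, log2 scale), so the differences of *Gli1* and *Gli2* were larger than counting alone gives. Of the 3958 windows of *Gli1*, 168 also lie in the antisense gene Gm47200, while *Gli2* and *Gli3* share none. The *Gli1* to *Gli2* ratio was 0.568 in mutant and 0.746 in wildtype, the *Gli1* to *Gli3* ratio 0.350 and 0.401, and the *Gli2* to *Gli3* ratio 0.616 and 0.537.

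In all, 3 of the 9 genes (*Gas1*, *Gli2* and *Shh*) were higher and 6 lower in Smchd1MommeD1/MommeD1, and 0 of 9 passed 1.5-fold, beside 4.98% of all loci. Their differences ran from -0.23 to 0.25 with a median of -0.01, which was also the median of all loci. The median size of a difference, without its sign, was 0.11 over all loci, and 4 of the 9 genes (*Gas1*, *Ptch1*, *Gli1* and *Gli2*) lay above it. *Smo* and *Gli3* changed sign under other scalings of the pools, and the other 7 genes kept theirs.

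**Figure D2:**
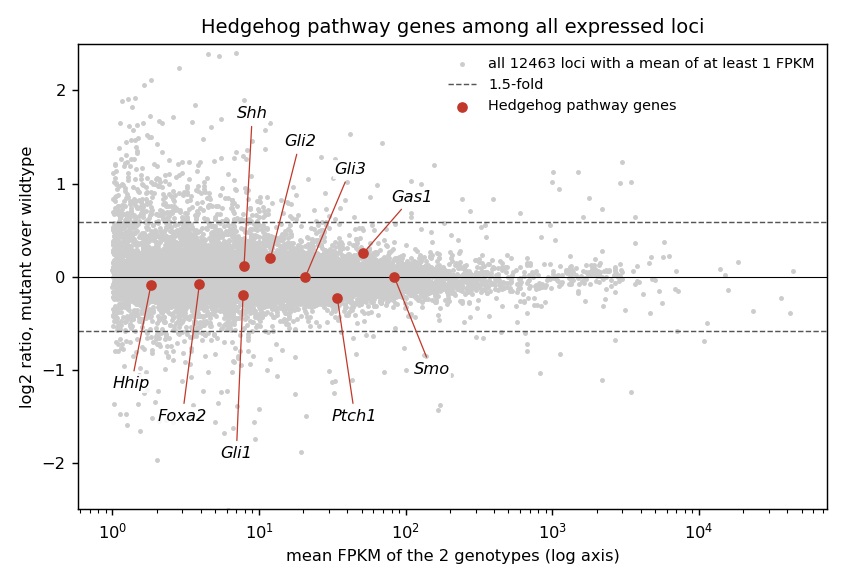
Difference between the pools (log2 of mutant over wildtype FPKM + 0.1, vertical axis) against mean FPKM (log axis) for all loci whose mean reached 1 FPKM in grey, with the 9 Hedgehog genes marked and the 1.5-fold limits drawn; 17 loci lie outside the plotted range. All 9 genes lie inside the limits, between -0.23 for *Ptch1* and 0.25 for *Gas1*.

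*Ptch1*, *Gli1* and *Hhip*, commonly read as a measure of the signal, were compared with the other 6 genes, a distance on which a single scaling factor for each pool has almost no effect. The 6 genes are not all independent of the signal. *Foxa2* was counted among them although it also answers to the signal in the floor plate. *Gas1*, the highest of the 6 at 0.25, is repressed where the signal is strong. *Gli3* was also listed among the genes that the signal represses in the neural tube. *Ptch1*, *Gli1* and *Hhip* were all lower in mutant, with a mean difference of -0.17. The other 6 genes had a mean of 0.08, so the 3 genes lay 0.25 below them on the log2 scale, and 0.28 below when each locus was centred on loci of similar FPKM. *Gli1* and *Ptch1* kept nearly the same ratio to each other, 0.230 in mutant and 0.226 in wildtype. No test of this distance is possible with 1 value per genotype. Of all loci, 48.2% were higher in mutant.

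**Figure D3:**
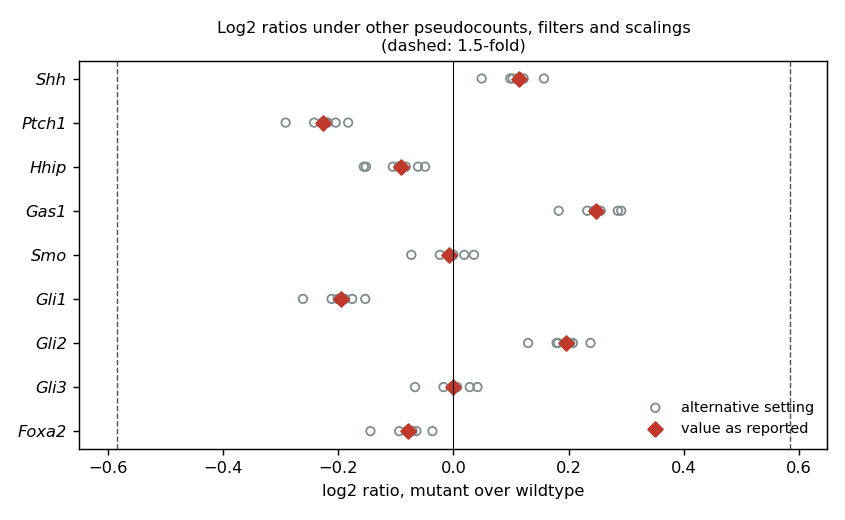
Log2 difference between the pools for each of the 9 Hedgehog genes under the reported settings and under other pseudocounts, filters and scalings, 1 point per setting. The points of a gene stay within a narrow band, *Gas1* from 0.18 to 0.29 and *Ptch1* from -0.29 to -0.18, and the bands of *Smo* and *Gli3* cross 0.

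The wider pathway was read from 5 lists covering ligand release, receptors, signal transduction, the cilium and targets, which without the 9 genes held 79 genes, 77 of them with a mean of at least 1 FPKM. Of these 77, 46 were higher and 31 lower in mutant, with a median difference of 0.03. None was at least 1.5-fold higher, where 3.51% of all loci were, and 2 were at least 1.5-fold lower, where 1.47% were. *Lrp2*, an endocytic receptor for the ligand and also a visceral endoderm gene, was at 3.60 FPKM in mutant against 5.85 FPKM in wildtype (-0.69). *Efcab7*, which helps to anchor the Evc complex in the cilium, was at 2.48 FPKM in mutant against 4.39 FPKM in wildtype (-0.80), and its locus in the table also holds *Itgb3bp*. *Lrp2* passed 1.5-fold under 11 of 12 settings, the reported one included, and *Efcab7* under all 12.

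Around *Shh*, the 5 other genes of ligand release had a median of 0.29, and 4 of them were higher in mutant. *Scube3* and *Scube1*, secreted proteins that help the lipid-bearing ligand leave its cell, were at 30.9 and 16.3 FPKM in mutant and at 25.3 and 12.4 FPKM in wildtype. The *Scube3* entry also holds *Zfp523*, and its difference is itself the median of 0.29. With entries of 1 symbol only, the median of the list with *Shh* was 0.15 in place of 0.22. The other ligand genes, *Ihh* and *Dhh*, stayed below 1 FPKM in both pools (0.299 and 0.284 FPKM in mutant, 0.491 and 0.177 FPKM in wildtype), so that *Shh* was the only one of the 3 above this level; they were named after their values were seen. The 6 other receptor and surface genes had a median of -0.04, and the most abundant, the glypican gene *Gpc3*, was at 198 FPKM in mutant against 207 FPKM in wildtype.

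Between *Smo* and the Gli proteins, the 21 signal transduction genes had a median of 0.02, with 13 higher and 8 lower. *Csnk1a1*, *Prkar1a* and *Prkaca* differed by -0.12, 0.07 and 0.09, the last in an entry that also holds *Asf1b*. *Csnk1a1* and *Prkaca* encode kinases whose phosphorylation of Gli proteins sets their processing, and *Prkar1a* encodes a regulatory subunit. *Sufu*, which holds Gli proteins in the cytoplasm, stood at 23.0 FPKM in both pools; it was named after its values were seen. The 30 cilium genes had a median of 0.03, with 19 higher and 11 lower, and *B9d1*, *Kifap3* and *Ift52*, of the transition zone, the kinesin-2 motor and intraflagellar transport, differed by 0.19, 0.18 and -0.11. None of these 7 genes differed by more than *Gas1* or *Ptch1* did, but other genes of both lists did. The signal transduction genes ran from -0.80 to 0.48 and the cilium genes from -0.32 to 0.39.

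The 16 targets beside *Ptch1*, *Gli1*, *Hhip* and *Foxa2* were evenly split, 8 higher and 8 lower, with a median of 0.01 and none past 1.5-fold. *Ccnd1* and *Mycn*, which drive the cell cycle, differed by 0.17 and -0.21, and *Rab34*, a small GTPase of cilium formation, by -0.16. The ends of the list, named after their values were seen, were *Nkx2-9* of the ventral neural tube at -0.49, the gut mesenchyme gene *Foxf1* also at -0.49, and *Foxf2* at 0.48. *Foxf1* was at 7.53 FPKM in mutant against 10.6 FPKM in wildtype, and *Foxf2* at 4.34 FPKM and 3.08 FPKM, so that these related targets differed in opposite directions. Whole embryos do not show which tissue each value came from. The lower values of *Ptch1*, *Gli1* and *Hhip* were not seen across the longer list.

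Genes that the signal represses in the neural tube, without *Gli3*, had a median of 0.08 over 6 genes, 3 higher and 3 lower, and none passed 1.5-fold. *Irx3* and *Pax6*, which set intermediate domains of the neural tube, differed by -0.03 and -0.10, and reads of *Pax6* may be shared with *Elp4* and Pax6os1 at the same locus. The list ran from *Msx1* at -0.21 to *Pax7* at 0.53, with *Dbx1* at 0.41 and *Pax3* at 0.18 also higher. These genes were named after their values were seen. Motif GACCACCCA, the consensus to which Gli proteins bind, was searched on both strands in the 300 bases from 250 before to 50 after each gene start in RefSeq (GRCm38). It was found in 83 of 32851 windows (0.253%) and in 0 of the 9 windows of 7 of the Hedgehog genes. *Shh* and *Gli1* were not searched. This says only that these letters are not in those windows.

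**Figure D4:**
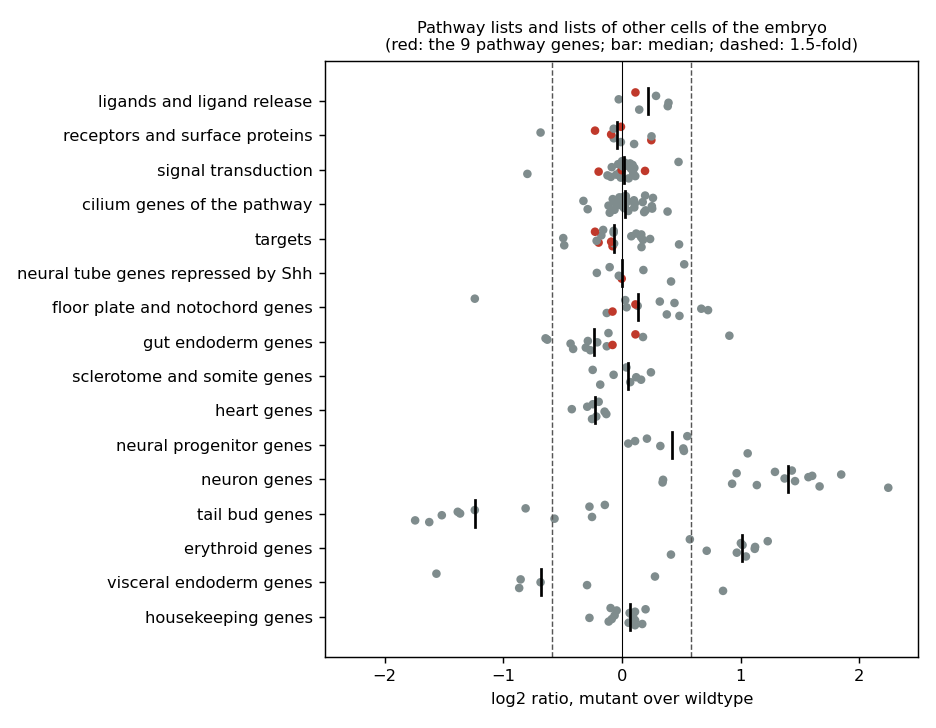
Log2 differences between the pools for the genes of each list, 1 point per gene (the 9 Hedgehog genes in red), with the median of the whole list, these genes included, as a bar and the 1.5-fold limits drawn. The 5 pathway lists have medians from -0.07 to 0.22, while tail bud genes have a median of -1.24 and neuron genes of 1.40.

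The tissues that make and receive the ligand were read from lists of genes chosen for them. Not all of these genes are limited to a single tissue, and *Foxa1* stood in both lists below. The median of a list, that of gut endoderm included, is therefore not a measure of that tissue alone. Of 11 floor plate and notochord genes beside *Shh* and *Foxa2*, 9 were higher in mutant, with a median of 0.32, and 3 passed 1.5-fold. These were *Foxj1*, of motile cilia, at 1.47 FPKM in mutant against 0.846 FPKM in wildtype, *Lmx1b*, of the midbrain floor plate and roof plate, at 6.38 FPKM and 3.97 FPKM, and *T*, of the notochord and tail bud, at 3.23 FPKM and 7.75 FPKM. *Shh* (0.11) and *Foxa2* (-0.08) lay between *T* (-1.24) and *Lmx1b* (0.67). Of 12 gut endoderm genes beside these members, 10 were lower, with a median of -0.28, led by the keratin genes *Krt8* (-0.64) and *Krt18* (-0.63), while the transcription factor gene *Onecut1* was higher (0.91). The notochord gene *Noto* was at 0.305 FPKM in mutant against 0.604 FPKM in wildtype, below the level used for the comparison, and was named after its values were seen.

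Genes of some other tissues differed by more, while the heart and somite lists had medians of -0.23 and 0.05. All 11 tail bud genes were lower in mutant, 7 of them past 1.5-fold, among them *Cdx4* (-1.74), *Cdx2* (-1.62), *Hes7* (-1.52) and *Nkx1-2* (-1.38). All 14 neuron genes were higher, 12 past 1.5-fold, led by *Cntn2* (2.25), *Nhlh2* (1.85), *Dcx* (1.67) and *Nhlh1* (1.60), and all 8 neural progenitor genes were higher with a median of 0.42, *Fabp7* alone past 1.5-fold (1.06). Erythroid genes had a median of 1.01, with *Hbb-y* at 4191 FPKM in mutant against 1787 FPKM in wildtype. Beside these lists the Hedgehog genes stood within 0.25 of 0 in either direction, and the part of the tissue shifts in the values of *Gas1*, *Ptch1*, *Gli1* and *Gli2* was not tested.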

How the data were processed

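RNA-seq libraries of 6 male E9.5 embryos (single reads of 100 bases, nondirectional) had been mapped to mm10 with TopHat2 2.0.6 and Bowtie2 2.0.2 and compared with Cufflinks and Cuffdiff 2.0.2, per the labels and the study's methods. The authors deposited 1 table with an FPKM value per locus for each genotype, pooled over 3 embryos; its columns of fold change, test statistic, p-value, q-value and significance hold their own comparison and were not used. The table names its conditions by codes, which were matched to the genotypes through the study's copy of the table, and *Smchd1* was checked against this. Samples were grouped by the genotype in the labels.

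From the deposited FPKM values, log2((mutant + 0.1)/(wildtype + 0.1)) was computed for loci whose mean reached 1 FPKM, with a difference of 1.5-fold as the rule. No test was possible. Reads per embryo are not given in the table, so the depth of each library is unknown. Approximate fragments were derived from the lowest FPKM values of genes with 1 GENCODE transcript each, of at least 1500 bases, and cover counting error only. For 1 fragment, the median of FPKM times kilobases of transcript was taken within a fixed window of 0.012 to 0.026. This window held 101 genes in mutant and 106 in wildtype, and the median could only fall inside it. Entries without a symbol numbered 1110 and held 36.8% of all FPKM in mutant and 39.3% in wildtype. FPKM is a share of each pool, and abundant transcripts that differ between pools can shift all others.

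The 9 genes and the lists were chosen with earlier results of these data known. The genes named were the 9 members, up to 4 genes past 1.5-fold in each list (by size of the difference) and the 3 most abundant of each pathway list; others are said to be named after their values were seen. Alternatives were pseudocounts of 0, 0.01 and 1 FPKM, means of at least 0.1 and 5 FPKM or no filter, 5 scalings, fold rules of 1.25 and 2, and only loci with 1 symbol and status OK. One alternative set of targets is not reported here. Scripts were tested on simulated data. Python 3.11.15, numpy 2.4.6, pandas 2.3.3 and matplotlib 3.10.9 were used, and sequences came from GENCODE M21 and RefSeq.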

Additional observations from a re-analysis of the deposited data

How the results depend on the processing

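None of the 9 Hedgehog genes passed the fold rule under any of the 14 alternatives, and their 106 alternative values ran from -0.29 to 0.29 on the log2 scale. The sign changed in 5 of these, 2 for *Smo* and 3 for *Gli3*, and the median of the 9 genes ran from -0.07 to 0.04. The distance of *Ptch1*, *Gli1* and *Hhip* from the other Hedgehog genes ran from -0.28 to -0.23 wherever all 9 genes were kept. The 5 FPKM filter removed *Hhip* and *Foxa2*, and there *Ptch1* and *Gli1* stood at -0.32 from the remaining genes. Over all loci the number past the rule was 621 and became 365 with a pseudocount of 1 FPKM, 1566 with a mean of at least 0.1 FPKM, 214 with a mean of at least 5 FPKM, 1831 with no filter, 1723 under the lower fold rule and 186 under a rule of 2-fold. Loci that were higher made up 70.5% of them, and 61.0% to 76.5% under other scalings. For the 17 lists, 197 of 204 alternative medians moved by at most 0.11 and 10 changed sign, in the lists of genes repressed by the signal, receptors, signal transduction, cilium and somites. Where 5 FPKM was asked of the mean, the somite median was -0.18 and that of visceral endoderm genes -0.0072, in place of 0.05 and -0.69. Their counts past the rule moved by over 1.5 times in 26 of 238 alternatives, 15 of them under another fold rule. That of floor plate and notochord genes went from 3 to 1 with a pseudocount of 1 FPKM.

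No paired analysis was possible because the table holds 1 pooled value per genotype and the labels number no replicates. For the same reason no fit without an embryo was made. Each value rests on 3 embryos whose spread is unknown. The depth of each library is also unknown. Counting error limits *Foxa2* and *Hhip* most, at about 0.09 and 0.07 (SE, log2 scale), and both differed by about as much.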

Other observations

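All 8 heart genes were lower in the mutant pool, none past 1.5-fold, with a median of -0.23 on the log2 scale and a summed FPKM of 869 in mutant and 1064 in wildtype. The 8 sclerotome and somite genes were split, 5 higher and 3 lower, with a median of 0.05 that became -0.18 with a mean of at least 5 FPKM. Of 7 visceral endoderm genes whose mean reached 1 FPKM, 5 were lower with a median of -0.69 over the list, a median that came to -0.0072 when a mean of at least 5 FPKM was asked for. Among the lower ones were *Ttr* (2.48 FPKM in mutant against 7.51 FPKM in wildtype), *Rbp4* (6.46 FPKM and 11.8 FPKM) and *Apoa1* (1.67 FPKM and 3.13 FPKM), while *Afp* was higher (14.7 FPKM and 8.10 FPKM). All 4 male marker genes were detected in both pools. The 15 housekeeping genes had a median of 0.07 and none passed 1.5-fold. Within the erythroid list the adult alpha-globin gene *Hba-a1* had a pair of entries, at 2060 and 1394 FPKM in mutant and 948 and 640 FPKM in wildtype, which share near-identical copies and are uncertain one by one, and the haem synthesis gene *Alas2* was at 29.3 FPKM in mutant against 14.1 FPKM in wildtype.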
